A study of Saccharomyces cerevisiae with 12 samples.

Results

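The redox difference of a transcript, its level in oxidized cells relative to reduced cells, was measured at 2 culture ages, and the comparison asks how that difference changed from 48 to 72 hr of growth. The quantity is the difference of differences, oxidized minus reduced at 72 hr less oxidized minus reduced at 48 hr, on the log2(PPM + 10) scale, and a positive value means that the transcript shifted toward the oxidized cells with age. PPM give the share of a library's reads that fell to a gene, in parts per 1e+06. Of 6645 genes in the table, 4776 (71.9%) reached an average level of 20 PPM across the 12 libraries and were the members. The last member inside this limit was YDR029W with a mean of 20.0 PPM, and the first gene outside was SAY1 with 19.96 PPM.

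The cells were Saccharomyces cerevisiae of the haploid laboratory strain BY4741, described in the study's methods as MATα, leu2Δ3 his3Δ1 met15Δ0 ura3-0. All of them carried Grx1-roGFP2 on a plasmid, a cytosolic green fluorescent protein fused to human glutaredoxin whose excitation spectrum follows the oxidation of glutathione. Cultures grew in a casein-based medium with glucose, and living cells of 48 or 72 hr were sorted by their fluorescence into an oxidized and a reduced subpopulation, with 3 libraries in each of the 4 groups. There was no treatment, and each group holds the cells that fell into a gate, so a group is defined by the sensor and the age alone. The paper calls the libraries biological replicates from repeated sorts, each giving both subpopulations, and no label says which libraries came from the same sort.

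Yeast in stationary culture lives on the products of its own fermentation and then on its stores, with respiration and stress protection switched on. Protein folding in such cells depends on a network in which Hsp70 and Hsp90 chaperones work with co-chaperones, small heat shock proteins and aggregate sorting factors, many of them induced by the transcription factor Hsf1 through heat shock elements and by Msn2 and Msn4 through stress response elements. Glutathione keeps cytosolic thiols reduced, and its oxidized form is what the sensor reports.

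The libraries held between 90403 and 241084 reads after removal of duplicates. At this depth the standard error of the age difference had a median of 0.56 over the members, 0.66 for the 2971 genes with a mean of 20 to 100 PPM, 0.39 for the 1437 genes of 100 to 500 PPM and 0.24 for the 368 genes at 500 PPM and above. MET17, the gene that met15Δ0 removes, was listed at 0 PPM in all 12 libraries, and LEU2 was at 0 PPM in 8 of 12 with at most 21.2 PPM. URA3 had 1117 to 1933 PPM and HIS3 158 to 265 PPM, and neither tests the strain where a plasmid marker or the 3′ part of a gene is present. The 5 a-cell markers had 1001 to 1508 PPM in sum per library and the 4 alpha-cell markers 35.3 to 199 PPM, which is the pattern of MATa cells and goes against the mating type in the methods. It was the same in the 4 groups. The summed level of 9 daughter-cell markers was 1156 to 1350 PPM in oxidized and 963 to 1242 PPM in reduced cells at 48 hr, and 1126 to 1319 PPM and 735 to 1065 PPM at 72 hr. The 5 meiotic markers summed to 44.2 to 94.9 PPM and 95.4 to 185 PPM at 48 hr, and to 76.6 to 108 PPM and 169 to 238 PPM at 72 hr, in the same order. At 72 hr neither list overlapped between the subpopulations, and at 48 hr the meiotic list did not overlap either. IME1 made up most of the meiotic sum, with means of 66.7 PPM in oxidized and 171 PPM in reduced cells at 72 hr. At that age SPO11 and SPO13 also had the higher mean in reduced cells, while NDT80 and SPS4 had it in oxidized cells. The part of both lists in the results was not tested.

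The redox difference changed with age for 37 of 4776 transcripts (0.775%, limma with Benjamini-Hochberg adjusted p below 0.05). It was higher at 72 hr for 36 of them, 0.754% of the members, and lower for 1, SIP18, 0.0209%. On the log2 scale 29 of the 37 changed at least 2-fold, all of them toward the oxidized cells at 72 hr. The median over all members was -0.0041 and 49.6% of the values were above 0. PPM give every library the same total, so a shift of all transcripts together cannot be seen on this scale. At an unadjusted p below 0.05 there were 430 transcripts, 255 higher and 175 lower. Of the 37, 16 had a mean of at least 500 PPM, 20 lay between 100 and 500 PPM, and only YIL100C-A was below 100 PPM. At these levels smaller changes could be told from the spread than among weak transcripts. Without oxidized 72 hr replicate 1 or without oxidized 72 hr replicate 3 the count was 23. The calls rest on a prior spread that follows the level of a transcript, and no transcript passed in a fit without this trend. PPM are shares of a library's reads, so fewer cells with a transcript and less of it per cell cannot be told apart.

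**Figure D1:**
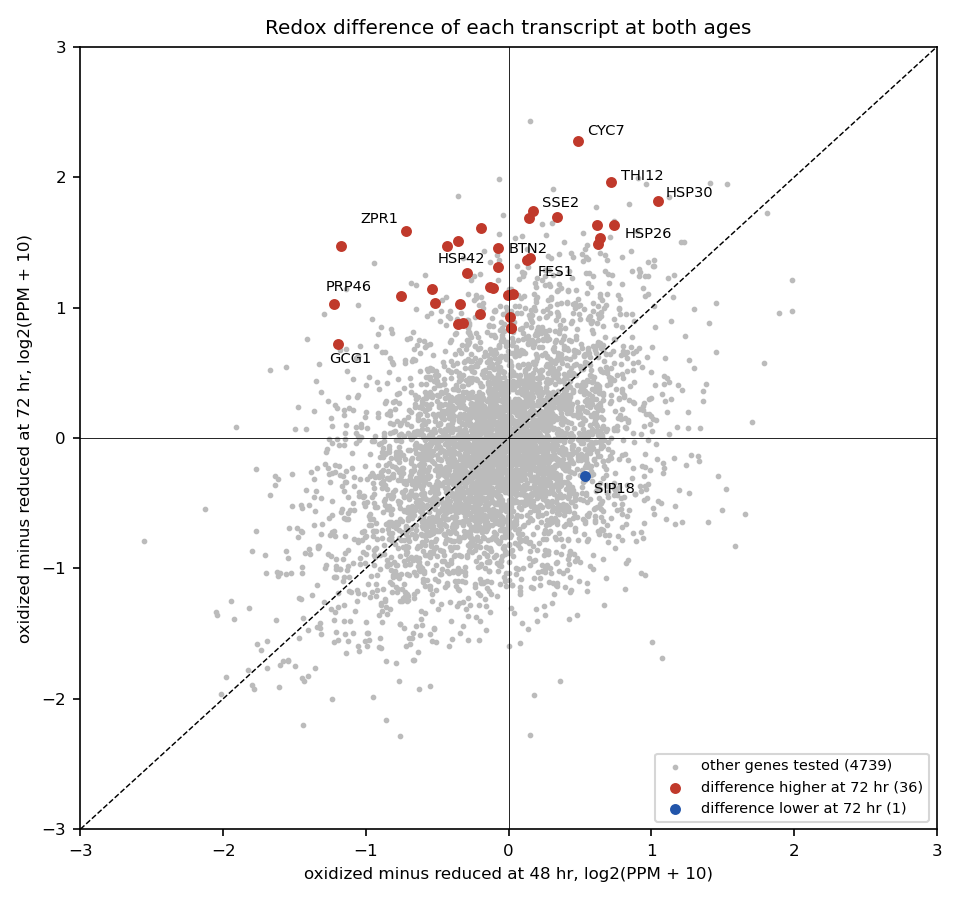
Oxidized minus reduced level of each of the 4776 transcripts on the log2(PPM + 10) scale at 48 hr (horizontal) and 72 hr (vertical), with the dashed line marking an equal difference at both ages. The 36 red transcripts lie above the line and between 0.72 and 2.28 at 72 hr but spread from -1.22 to 1.04 at 48 hr, and SIP18 (blue) is the transcript past the threshold below the line.

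At 72 hr these 36 transcripts were all higher in oxidized cells and past the threshold, against 4.86% of the members, with a median log2 difference of 1.34. At 48 hr their median was -0.07. Of all members 9.61% passed at 72 hr and 3.85% at 48 hr in either direction. At 48 hr 16 had values above 0 and 20 below. Past the threshold at 48 hr were 6 transcripts higher in oxidized cells, against 1.42% of the members (HSP30, HSP26, HSP82, CPR6, SPI1 and THI12), and 2 lower, against 2.43% (PRP46 and GCG1). The remaining 28 passed at 72 hr and not at 48 hr. All these comparisons share libraries with the age difference, by which the 36 were picked, and are given beside it as a description.

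The same quantity can be read by subpopulation, as the change from 48 to 72 hr in oxidized cells less that in reduced cells. From 48 to 72 hr 28 of the 36 transcripts fell in reduced cells, against 1.76% of the members, and the other 8 had values below 0. The median was -1.01. Of all members 2.32% passed in reduced cells and 0.44% in oxidized cells in either direction. In oxidized cells the median from 48 to 72 hr was 0.41, with 25 values above and 11 below 0. Past the threshold there, ZPR1 and AIT1 rose, against 0.168% of the members, and HSP30 fell, against 0.272%. The 36 were picked by the age difference, which holds these same changes, so the shares beside them are a description and not a test.

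The chaperone and heat shock list held 10 of the 36 transcripts. All 38 of its genes were members, 32 had a positive age difference, and the median was 0.56. Of the 38, 10 passed the threshold as higher, against 0.754% of all members, and 0 as lower, against 0.0209%. The shares over all members are not matched to the list for level. In either direction 20 of 1437 members passed at 100 to 500 PPM and 16 of 368 at 500 PPM and above. The 10 were HSP42, BTN2, HSP26, FES1, SSE2, APJ1, HSP82, SSA4, HSP30 and CPR6. They cover small heat shock proteins, aggregate sorting, Hsp70 with its exchange factors, Hsp90 with a co-chaperone, and a membrane protein. At 48 hr the median of the list was 0.16 with 8 transcripts past the threshold as higher in oxidized cells, against 1.42% of the members, and at 72 hr it was 0.92 with 23 higher and 1 lower, against 4.86% and 4.75%. From 48 to 72 hr 19 of the 38 fell in reduced cells, against 1.76% of the members (median -0.64), while in oxidized cells 2 fell, against 0.272%, and the median was -0.00037.

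HSP42, a small heat shock protein that gathers misfolded proteins into cytosolic aggregates, had the smallest adjusted p of all members. Levels are given for replicates 1, 2 and 3 in that order, oxidized before reduced, and every adjusted p is from limma with Benjamini-Hochberg adjustment over the 4776 transcripts tested. Its oxidized libraries had 1305, 1436 and 1676 PPM and its reduced libraries 1891, 1712 and 1782 PPM at 48 hr. At 72 hr the oxidized libraries had 1814, 2099 and 1922 PPM and the reduced libraries 745, 884 and 783 PPM. In value the order of the subpopulations was turned between the ages, without overlap at either. The redox difference of -0.29 at 48 hr did not pass the threshold (adjusted p = 0.36). The age difference was 1.56 (standard error 0.21, adjusted p = 4.9e-06). BTN2, which sorts misfolded proteins together with Hsp42, had 1117, 1165 and 1328 PPM in oxidized and 1614, 1057 and 1181 PPM in reduced libraries at 48 hr. At 72 hr it had 1033, 1060.4 and 1138 PPM and 487, 368 and 321 PPM. The libraries overlapped at 48 hr, and at 72 hr every reduced library was far below every oxidized one. The age difference was 1.53 (standard error 0.24, adjusted p = 0.00016).

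HSP26, the other abundant small heat shock protein, was already higher in oxidized cells at 48 hr, and the distance grew. Its oxidized libraries had 32720.2, 29693 and 37452 PPM at 48 hr, against 18649, 19358 and 21605 PPM in the reduced ones. At 72 hr the levels were 27892, 26646 and 28531 PPM and 8869, 9974 and 8002 PPM. The mean ratio between the subpopulations went from 1.68 to 3.09, and the age difference was 0.89 (standard error 0.16, adjusted p = 0.00085). Its counting window overlaps that of YBR072C-A on the opposite strand by 214 bp.

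SSE2 and FES1 act on Hsp70 and did not differ past the threshold at 48 hr. SSE2, an Hsp110 that exchanges the nucleotide of Hsp70, had 420.3, 364 and 632 PPM in oxidized and 357, 469.9 and 399 PPM in reduced libraries at 48 hr. At 72 hr it had 523, 729 and 619 PPM and 184, 169.6 and 180.3 PPM. The subpopulations overlapped at the first age and stood 3.51-fold apart in the mean at the second. The age difference of SSE2 was 1.57 (standard error 0.30, adjusted p = 0.0011). FES1, an exchange factor of cytosolic Hsp70, had 1184, 1016 and 1159.5 PPM and 991, 1099 and 970.1 PPM at 48 hr. At 72 hr its levels were 935, 1096 and 1085 PPM and 452, 403 and 338 PPM. Its oxidized libraries overlapped between the ages and its reduced libraries fell, with an age difference of 1.24 (standard error 0.23, adjusted p = 0.0011). Other Hsp70 partners did not pass, with 0.70 for SSE1 (adjusted p = 0.25), 0.77 for SIS1 (adjusted p = 0.21), 0.03 for YDJ1 (adjusted p = 0.98) and -0.30 for SNL1 (adjusted p = 0.96). On the opposite strand the window of SSE2 overlaps that of PEX32 by 97 bp, and that of FES1 overlaps MMS4 by 169 bp.

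APJ1, a J-domain partner of Hsp70, had 309.7, 158 and 264 PPM in oxidized and 344, 302 and 399 PPM in reduced libraries at 48 hr, then 307, 332 and 424 PPM and 174, 141 and 147 PPM at 72 hr. In value it was the lower in oxidized cells first (-0.54) and the higher there later (1.14). The age difference was 1.68 (standard error 0.33, adjusted p = 0.0022). SSA4, the stress-induced Hsp70, had 597, 569 and 643 PPM and 523, 445 and 684 PPM at 48 hr, then 907, 851 and 825 PPM and 323, 417 and 254 PPM. Only at 72 hr did its subpopulations lie apart, with an age difference of 1.23 (standard error 0.27, adjusted p = 0.0068). The call of SSA4 was lost without reduced replicate 3 at 48 hr (adjusted p = 0.075).

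HSP82 and its partner CPR6 were already higher in oxidized cells at 48 hr. HSP82, the stress-induced Hsp90, had 3960.0, 4121 and 4669.7 PPM in oxidized and 2597, 2727 and 2843 PPM in reduced libraries at 48 hr, then 3997, 3571 and 3602 PPM and 1167, 1428 and 1251 PPM. Its mean ratio went from 1.56 to 2.90, an age difference of 0.90 (standard error 0.19, adjusted p = 0.0044). CPR6, a cyclophilin that binds Hsp90, had mean ratios of 1.56 and 2.84 and an age difference of 0.86 (standard error 0.22, adjusted p = 0.035). HSP30, a plasma membrane protein that restrains the proton pump, had 7798, 7617 and 9739.9 PPM and 3928, 3960.5 and 4226 PPM at 48 hr, then 4681, 4948 and 5394 PPM and 1147, 1513 and 1612 PPM. It fell in both subpopulations, by 0.74 in oxidized and by 1.51 in reduced cells on the log2 scale, and the age difference was 0.78 (standard error 0.19, adjusted p = 0.027). Other Hsp90 transcripts of the list did not pass, the constitutive HSC82 with 0.13 (standard error 0.30, adjusted p = 0.96), the kinase co-chaperone CDC37 with 0.37 (standard error 0.42, adjusted p = 0.87) and the AHA1 relative HCH1 with -0.40 (standard error 0.33, adjusted p = 0.78). The call of CPR6 was lost without oxidized replicate 1 or reduced replicate 1, 2 or 3 at 48 hr, or oxidized replicate 1 or 3 or reduced replicate 1 at 72 hr (adjusted p 0.052 to 0.18), and that of HSP30 without oxidized replicate 1 or 2 or reduced replicate 2 or 3 at 48 hr, or oxidized replicate 1, 2 or 3 or reduced replicate 1 at 72 hr (adjusted p 0.056 to 0.20).

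**Figure D2:**
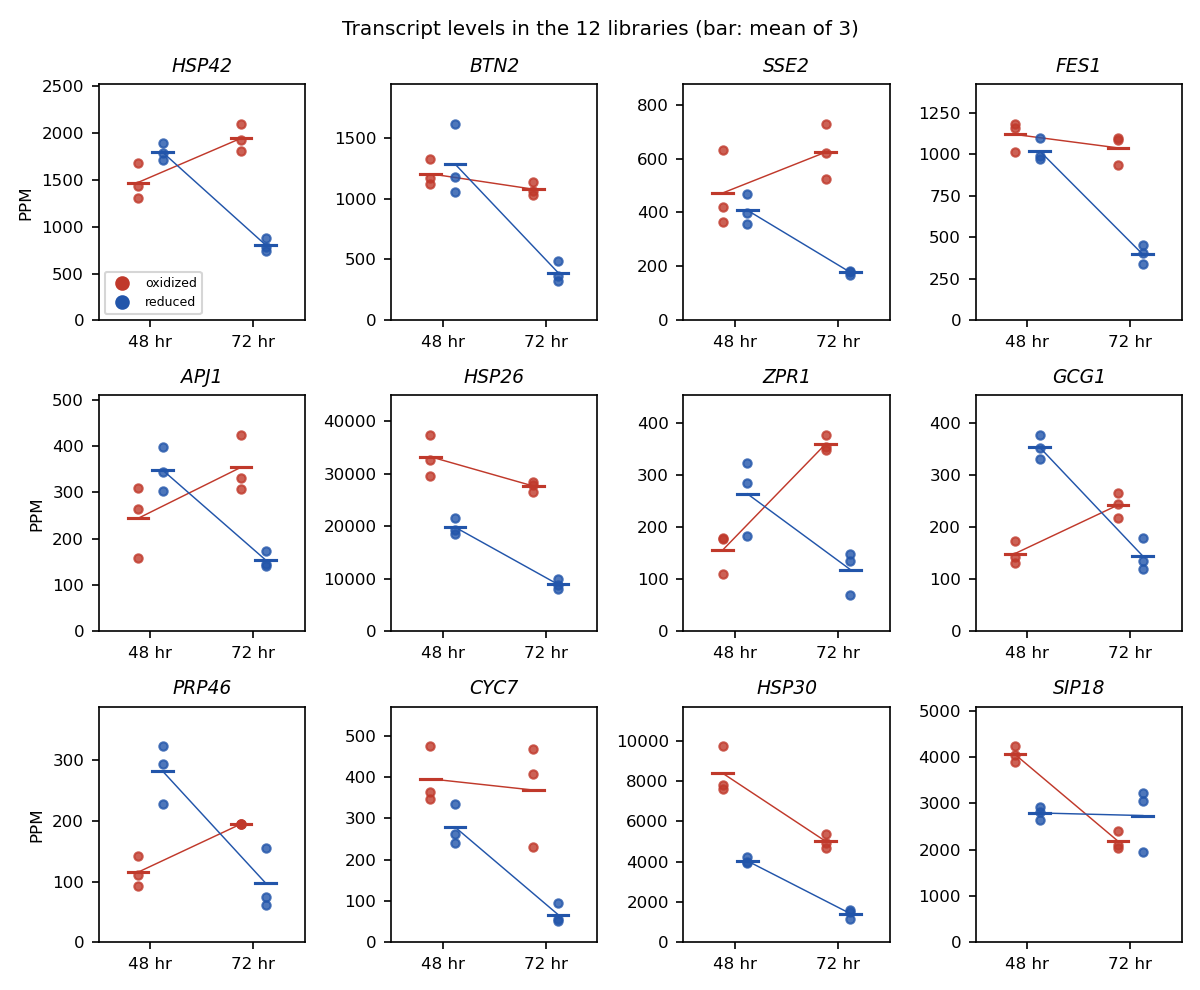
PPM of 12 transcripts in the 12 libraries at 48 and 72 hr, with oxidized libraries in red, reduced libraries in blue, a bar for the mean of 3 libraries and a line joining the means. In 11 of the panels the reduced mean falls below the oxidized mean at 72 hr, and SIP18 is the exception.

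Of the 28 chaperone transcripts that did not pass, some had values as large as those that did. AHA1, the activator of the Hsp90 ATPase, had an age difference of 1.05 (standard error 0.32, adjusted p = 0.13). STI1, which links Hsp70 and Hsp90, had 0.98 (standard error 0.27, adjusted p = 0.071), the mitochondrial J-domain protein MDJ1 0.97 (standard error 0.32, adjusted p = 0.20) and the mitochondrial disaggregase HSP78 0.94 (standard error 0.29, adjusted p = 0.14). The cytosolic disaggregase HSP104 had 0.71 (standard error 0.21, adjusted p = 0.12). None of these 5 passed. Values near 0 were found for several others. The ribosome-bound Hsp70 transcripts SSB1 and SSB2 had -0.07 and -0.01, the J-domain protein YDJ1 0.03 and the constitutive Hsp90 HSC82 0.13, with standard errors of 0.26 to 0.32. In between lay the mitochondrial co-chaperonin HSP10 with 0.60, the cytosolic Hsp70 SSA2 with 0.51, the mitochondrial chaperonin HSP60 with 0.41 and the mitochondrial Hsp70 SSC1 with 0.31. HSP12, a small stress protein of membranes, went the other way in value with -0.51 (standard error 0.18, adjusted p = 0.26). It passed as lower without reduced 72 hr replicate 3 (-0.69, adjusted p = 0.0024). It had 6732, 7985 and 8129 PPM in oxidized and 12851, 12229 and 8599 PPM in reduced libraries at 72 hr. At that age it was the chaperone transcript past the threshold as lower in oxidized cells.

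**Figure D3:**
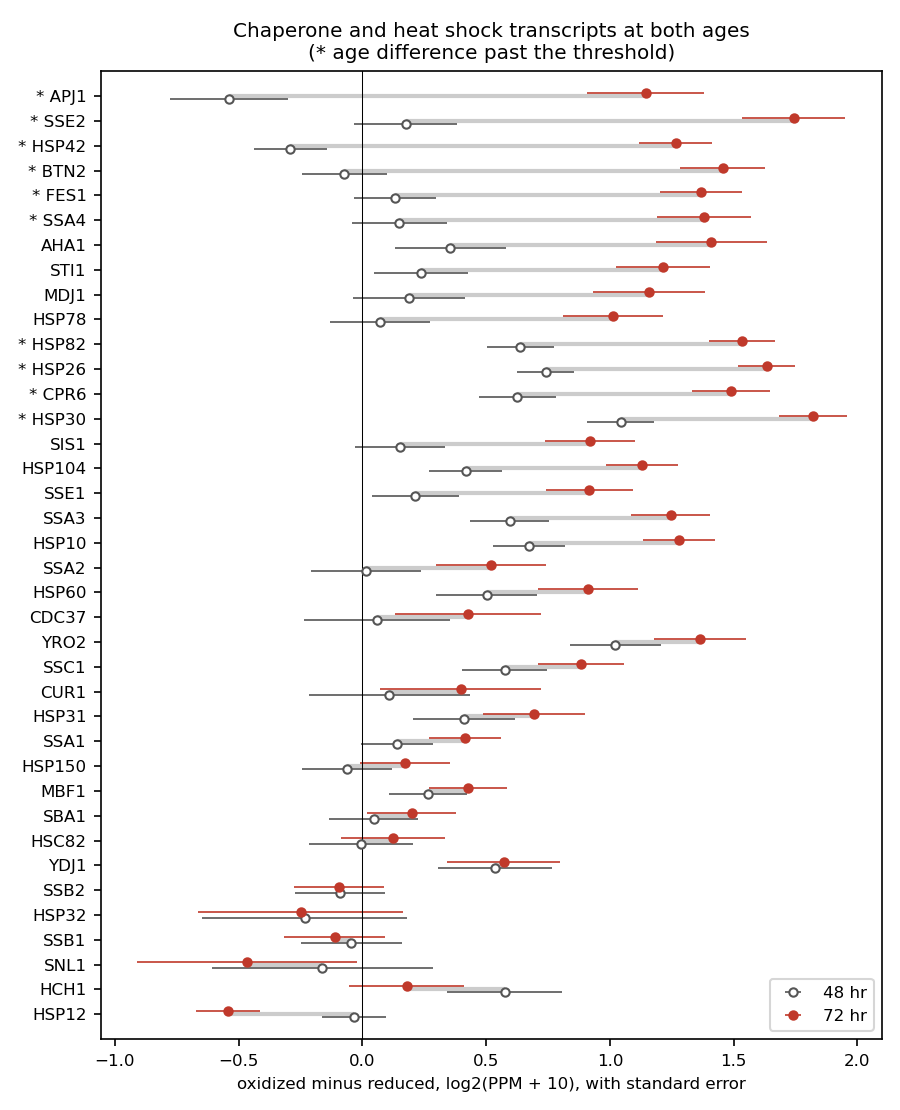
Oxidized minus reduced level on the log2(PPM + 10) scale, with its standard error, for the 38 chaperone and heat shock transcripts at 48 hr (open) and 72 hr (filled), ordered by the age difference from APJ1 (1.68) at the top to HSP12 (-0.51) at the bottom. Asterisks mark the 10 transcripts whose age difference passed the threshold.

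Promoters of these genes were read from the R64 genome (250 bases before to 50 after the annotated start, which is the first coding base), since Hsf1 binds heat shock elements. The element was searched on both strands as 3 blocks of TTC or GAA in alternation with 2 free bases between blocks. It was present in 42 of 4667 promoters of members (0.900%), in 4 of the 33 promoters of transcripts past the threshold and in 8 of the 38 promoters of the chaperone list. Among the chaperones past the threshold 2 of 10 held it (HSP42 and FES1), and among the others 6 of 28 (HSP78, STI1, SSA2, SSE1, HSP10 and HSP60). The 2 further promoters were those of ZPR1 and LST8, which are not on the chaperone list. LST8 shares its upstream region with SIS1, transcribed from the other end, and 501 bases lie between the coding starts of both. The 4 stretches are shown because they are the promoters of transcripts past the threshold with the element, each read 5′ to 3′ along the gene with the element in capitals, overlapping matches joined. The positions in R64 are chrIV:806371-806415 on the plus strand for HSP42, chrII:444832-444884 on the minus strand for FES1, chrVII:915001-915053 on the plus strand for ZPR1 and chrXIV:619867-619929 on the plus strand for LST8.
HSP42: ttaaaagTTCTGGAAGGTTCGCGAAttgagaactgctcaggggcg
FES1: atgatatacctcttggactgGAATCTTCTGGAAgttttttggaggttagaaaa
ZPR1: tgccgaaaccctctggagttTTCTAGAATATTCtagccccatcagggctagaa
LST8: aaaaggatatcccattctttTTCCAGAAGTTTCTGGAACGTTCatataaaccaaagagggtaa
HSP42 holds 2 overlapping matches and LST8 3, while FES1 and ZPR1 hold 1 each. Of the chaperone promoters whose transcripts did not pass, HSP78 holds 2 overlapping matches at almost the same distance from the start as HSP42 and STI1 holds 2 apart, and both are shown for that comparison. They lie at chrIV:974453-974493 on the minus strand and chrXV:380803-380869 on the plus strand.
HSP78: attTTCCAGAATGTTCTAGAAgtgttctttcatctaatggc
STI1: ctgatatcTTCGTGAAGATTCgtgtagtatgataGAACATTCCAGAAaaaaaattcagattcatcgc
The stress response element, AGGGG or its complement CCCCT, was present in 22.7% of all promoters of members, in 11 of 33 (33.3%) of those past the threshold and in 5 of the 10 chaperones past the threshold, HSP42 (3 matches), SSE2, SSA4, HSP82 and FES1. The Yap1 site, TTACTAA or TTAGTAA, was present in 7.78% of all and in 6 of 33 (18.2%), 1 of them a chaperone. The CCAAT box of the Hap complex was present in 44.4% and 45.5%, the letters GATGAG or CTCATC in 19.6% and 21.2%, and the proteasome element GGTGGCAAA or TTTGCCACC in 1.39% and 0%. A match is a description of the letters and not a site of binding. Absence of a match is no sign that Hsf1 does not bind. Elements further than 250 bases before the first coding base, or without 3 unbroken blocks, were not searched. The matches of LST8 also lie upstream of SIS1, but beyond the window read for SIS1.

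**Figure D4:**
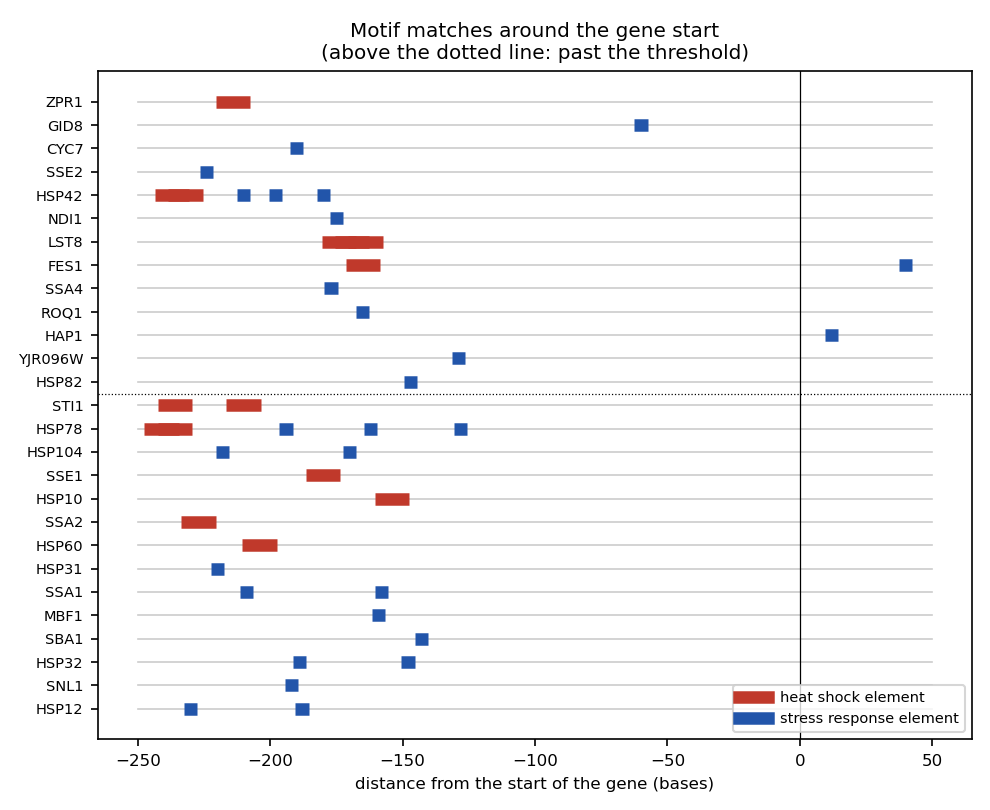
Position of heat shock elements (red) and stress response elements (blue) in bases from the annotated start, for transcripts past the threshold (above the dotted line) and the other chaperone transcripts (below), each group ordered by age difference. Genes without a match are left out, and the heat shock elements lie between -247 and -148.

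Outside the chaperone list 26 transcripts shifted toward the oxidized cells. The 7 of them with the largest age differences all had a redox difference below 0 in value at 48 hr. A low redox difference at 48 hr raises the age difference by definition, so this is a description. ZPR1, a zinc finger protein that assists the folding of translation elongation factor eEF1A, had 111, 177 and 179 PPM in oxidized and 183, 285 and 323 PPM in reduced libraries at 48 hr. At 72 hr it had 377, 353 and 348 PPM and 149, 70.7 and 135 PPM. It rose in oxidized cells and fell in reduced cells, by 1.19 and -1.12 on the log2 scale, and the age difference was 2.30 (standard error 0.38, adjusted p = 0.00019). It was the transcript of the 36 that passed in both subpopulations in opposite directions.

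PRP46 and GCG1 (YER163C) were past the threshold at both ages in opposite directions. PRP46, a subunit of the spliceosome, had 111, 93.2 and 142 PPM in oxidized and 228, 294 and 323 PPM in reduced libraries at 48 hr, then 195, 195 and 195 PPM and 74.5, 156 and 62.0 PPM at 72 hr. Its redox difference went from -1.22 to 1.03, an age difference of 2.25 (standard error 0.40, adjusted p = 0.00070). The window of PRP46 overlaps that of RRD2 on the opposite strand by 324 bp. GCG1, an enzyme that breaks down glutathione, had 144, 131 and 174 PPM and 353, 378 and 331 PPM at 48 hr, then 265, 245 and 218 PPM and 179, 120.2 and 135 PPM at 72 hr. Its reduced libraries were above every oxidized one at the first age and below every oxidized one at the second. The redox difference went from -1.20 to 0.72, an age difference of 1.92 (standard error 0.34, adjusted p = 0.00070).

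GID8, a subunit of the ubiquitin ligase that removes gluconeogenic enzymes, had 122, 112 and 153 PPM in oxidized and 162, 159 and 211 PPM in reduced libraries at 48 hr, then 216, 361 and 206 PPM and 99.3, 77.8 and 78.9 PPM. Its redox difference of -0.43 at 48 hr did not pass the threshold (adjusted p = 0.52), and that of 1.47 at 72 hr did. The age difference was 1.90 (standard error 0.39, adjusted p = 0.0031). AIT1 (YDL180W), a regulator of the TORC1 kinase, had 88.5, 55.9 and 42.2 PPM and 108, 109 and 105 PPM at 48 hr, then 153, 173 and 159 PPM and 74.5, 70.7 and 67.6 PPM. From 48 to 72 hr it rose by 1.30 in oxidized cells and had -0.54 in reduced cells on the log2 scale, and the age difference was 1.84 (standard error 0.46, adjusted p = 0.031). YIL100C-A, which the R64 annotation used here does not name, had the largest value of all 37, 2.65 (standard error 0.67, adjusted p = 0.032), at the lowest level. It had 66.4, 18.6 and 52.7 PPM and 74.7, 117 and 135 PPM at 48 hr, then 48.8, 21.6 and 76.6 PPM and 9.93, 14.1 and 5.63 PPM. The lowest of these levels stand for 1 or 2 reads. The window of GID8 overlaps that of YMR134W on the opposite strand by 262 bp. The call of AIT1 was lost without oxidized replicate 2 or 3 or reduced replicate 1, 2 or 3 at 48 hr, or oxidized replicate 1, 2 or 3 or reduced replicate 1, 2 or 3 at 72 hr (adjusted p 0.056 to 0.10), and that of YIL100C-A without oxidized replicate 2 or reduced replicate 2 or 3 at 48 hr, or oxidized replicate 1 or 3 or reduced replicate 1 or 3 at 72 hr (adjusted p 0.070 to 0.18).

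The respiratory chain list held complexes II to V, cytochrome c and the NADH dehydrogenases NDI1, NDE1 and NDE2, with 42 of 44 genes tested. Of the 42, 32 transcripts had a positive age difference, against 49.6% of all members, with a median of 0.31. Of the 42, 2 passed the threshold as higher and 0 as lower, against 0.754% and 0.0209%. These shares over all members are not matched to the list for level. In either direction 20 of 1437 members passed at 100 to 500 PPM and 16 of 368 at 500 PPM and above. CYC7, the isoform 2 of cytochrome c, had 476, 364 and 348 PPM in oxidized and 261, 336 and 241 PPM in reduced libraries at 48 hr, then 230.2, 469 and 407 PPM and 94.3, 56.5 and 50.7 PPM at 72 hr. Its reduced libraries fell by 1.93 on the log2 scale, and the mean ratio went from 1.42 to 5.48. The age difference of CYC7 was 1.79 (standard error 0.36, adjusted p = 0.0024). The major isoform CYC1 had 0.71 (standard error 0.23, adjusted p = 0.18). NDI1, the NADH dehydrogenase of the inner mitochondrial membrane, had 277, 298 and 390.0 PPM and 278, 411 and 331 PPM at 48 hr, then 405, 339 and 637 PPM and 164, 254 and 124 PPM. Its libraries overlapped at 48 hr and lay apart at 72 hr, with an age difference of 1.38 (standard error 0.34, adjusted p = 0.026). The call of NDI1 was lost without oxidized replicate 1 or 2 or reduced replicate 2 or 3 at 48 hr, or oxidized replicate 1 or 3 or reduced replicate 1 or 3 at 72 hr (adjusted p 0.056 to 0.21). CYT1, cytochrome c1 of complex III, was just outside the threshold with 1.46 (standard error 0.39, adjusted p = 0.060). The hypoxic cytochrome oxidase subunit COX5B had 1.07 (standard error 0.35, adjusted p = 0.20) and its aerobic partner COX5A 0.57 (standard error 0.26, adjusted p = 0.48). ATP19 had the most negative value of the list, -0.93 (standard error 0.28, adjusted p = 0.13). Over the list the redox difference had a median of 0.38 at 48 hr and 0.66 at 72 hr. The window of CYC7 overlaps that of UTR2 on the opposite strand by 220 bp.

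HAP1, the gene of a heme-dependent regulator of respiratory and hypoxic genes, was also among the 36. Whether its protein is active in this strain was not tested. HAP1 had 476, 475 and 574 PPM in oxidized and 548, 445 and 541 PPM in reduced libraries at 48 hr, then 600.0, 534 and 725 PPM and 273, 304 and 270.5 PPM. Its libraries were mixed at the first age and separate at the second, with an age difference of 1.10 (standard error 0.27, adjusted p = 0.025). BDH2, related to butanediol dehydrogenase, had 564, 503 and 574 PPM and 568, 545 and 662 PPM at 48 hr, then 663, 772 and 919.6 PPM and 283, 438 and 332 PPM, an age difference of 1.26 (standard error 0.27, adjusted p = 0.0043). NCA2, a mitochondrial protein needed for the expression of ATP synthase subunits, had mean ratios of 1.12 and 3.43 and an age difference of 1.54 (standard error 0.37, adjusted p = 0.019). Its window overlaps by 49 bp that of PIN3 on the opposite strand, a protein that can induce prion formation, which had 1.25 and 3.31 and an age difference of 1.35 (standard error 0.33, adjusted p = 0.027). Within a library the level of PIN3 was 1.00 to 2.73 times that of NCA2. The call of HAP1 was lost without oxidized replicate 1 or 2 or reduced replicate 1 or 3 at 48 hr, or oxidized replicate 1 or 3 or reduced replicate 1 at 72 hr (adjusted p 0.056 to 0.15), and that of BDH2 without oxidized replicate 3 at 72 hr (adjusted p = 0.050). NCA2 was lost without oxidized replicate 2 or reduced replicate 3 at 48 hr, or oxidized replicate 1 or 3 or reduced replicate 1 at 72 hr (adjusted p 0.053 to 0.095), and PIN3 without oxidized replicate 2 or reduced replicate 1 or 3 at 48 hr, or oxidized replicate 1, 2 or 3 or reduced replicate 2 at 72 hr (adjusted p 0.056 to 0.14).

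SPI1, a wall protein anchored by lipid and induced in stationary cells, had 3728, 4018 and 4343 PPM in oxidized and 2207, 2819 and 2865 PPM in reduced libraries at 48 hr, then 3446, 4025 and 4115 PPM and 1137, 1258 and 1313 PPM. On the log2 scale its level from 48 to 72 hr was -0.06 in oxidized cells and fell by 1.08 in reduced cells, an age difference of 1.01 (standard error 0.20, adjusted p = 0.0014). HOR7, a small protein responsive to osmotic stress, had 7079, 6843 and 7352 PPM and 7031, 7124 and 6949 PPM at 48 hr, then 8051, 7783 and 8854 PPM and 4290.4, 4729 and 3928 PPM. The subpopulations overlapped at 48 hr and were 1.91-fold apart in the mean at 72 hr, with an age difference of 0.92 (standard error 0.17, adjusted p = 0.0011). ROQ1 (YJL144W), a stress-induced protein that redirects the ubiquitin ligase Ubr1 to misfolded proteins, had 708, 914 and 812 PPM and 904, 856 and 1038 PPM at 48 hr, then 935, 1039 and 996 PPM and 507, 523 and 490.2 PPM, an age difference of 1.15 (standard error 0.23, adjusted p = 0.0024). YJR096W, an aldose reductase, had mean ratios of 1.02 and 2.16 and an age difference of 1.07 (standard error 0.24, adjusted p = 0.0089), which was lost without reduced replicate 3 at 48 hr (adjusted p = 0.071).

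CUP1, the copper metallothionein, lies in a tandem repeat, and its 2 annotated copies had nearly the same PPM in every library (ratio 0.965 to 1.02), so they stand for the repeat and not for 2 results. CUP1-1 had 24236, 21601 and 24734 PPM in oxidized and 24357, 23419 and 21951 PPM in reduced libraries at 48 hr, then 21508, 19137 and 21027 PPM and 12499, 12667 and 9489 PPM. The subpopulations overlapped at 48 hr, and at 72 hr the reduced libraries were the lowest, with an age difference of 0.83 (standard error 0.17, adjusted p = 0.0023). YHR052W-A and YHR054W-A, which are not matched to the annotation used here, had age differences of 1.80 (standard error 0.32, adjusted p = 0.00070) and 1.86 (standard error 0.36, adjusted p = 0.0013). Their systematic names place them beside the CUP1 copies, YHR053C and YHR055C. Within a library YHR052W-A was at 1.04 to 1.66 times the level of YHR054W-A. Their window overlaps could not be computed, so they need not be 2 results or separate from CUP1. With no filter on low values both CUP1 copies had an adjusted p of 0.054 in limma.

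The last transcripts of the 36 belong to no common list. LST8, a subunit of both TOR complexes, had 420.3, 233 and 395 PPM in oxidized and 377, 436 and 489 PPM in reduced libraries at 48 hr, then 530.2, 440.0 and 519 PPM and 169, 332 and 237 PPM, an age difference of 1.37 (standard error 0.32, adjusted p = 0.013). SPT15, the TATA-binding protein, had mean ratios of 0.913 and 2.31 and an age difference of 1.29 (standard error 0.31, adjusted p = 0.024). VPS24 of the ESCRT-III complex, which bends endosomal membranes, had 0.674 and 2.11 and an age difference of 1.55 (standard error 0.41, adjusted p = 0.047). SYG1, a membrane protein linked to pheromone signalling, had 1.22 (standard error 0.30, adjusted p = 0.027), and YIL047C-A, whose PPM equal those of SYG1 in 9 of 12 libraries, 1.20 (standard error 0.30, adjusted p = 0.032). This pair is therefore 1 result. THI12, of thiamine pyrimidine synthesis, had 642, 634 and 891 PPM and 369, 520.2 and 414 PPM at 48 hr, then 628, 491 and 684 PPM and 139, 156 and 141 PPM, an age difference of 1.25 (standard error 0.29, adjusted p = 0.012). Near-identical copies of THI12 exist, so its reads may come from or be divided among them. On the opposite strand the window of LST8 overlaps that of MRP7 by 65 bp, that of SPT15 PEA2 by 217 bp, that of VPS24 NFU1 by 159 bp, that of SYG1 NEO1 by 177 bp and that of THI12 AAD14 by 136 bp. The call of LST8 was lost without oxidized replicate 2 or reduced replicate 3 at 48 hr, or oxidized replicate 1 or 3 or reduced replicate 1 at 72 hr (adjusted p 0.059 to 0.12). SPT15 was lost without oxidized replicate 3 or reduced replicate 1 or 2 at 48 hr, or oxidized replicate 3 or reduced replicate 1 at 72 hr (adjusted p 0.061 to 0.14), and VPS24 without oxidized replicate 1, 2 or 3 or reduced replicate 1 or 2 at 48 hr, or oxidized replicate 1, 2 or 3 or reduced replicate 1 or 2 at 72 hr (adjusted p 0.051 to 0.20). Likewise SYG1 was lost without oxidized replicate 1 or 3 or reduced replicate 2 or 3 at 48 hr, or oxidized replicate 1 or 3 or reduced replicate 1 or 3 at 72 hr (adjusted p 0.061 to 0.14). For YIL047C-A the same held without oxidized replicate 1 or 3 or reduced replicate 2 or 3 at 48 hr, or oxidized replicate 1 or 3 or reduced replicate 1 or 3 at 72 hr (adjusted p 0.072 to 0.15), and THI12 was lost without oxidized replicate 2 or reduced replicate 2 at 48 hr, or oxidized replicate 1 or 3 at 72 hr (adjusted p 0.055 to 0.090).

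In the other direction SIP18, a hydrophilin that protects cells during drying, was the transcript past the threshold. It had 4049, 3888 and 4243 PPM in oxidized and 2933, 2643 and 2805 PPM in reduced libraries at 48 hr, then 2107, 2041 and 2405 PPM and 3223, 3047 and 1944 PPM at 72 hr. Its oxidized level fell by 0.89 on the log2 scale, and its reduced level was -0.06. The subpopulations lay apart at 48 hr and overlapped at 72 hr. The age difference was -0.83 (standard error 0.21, adjusted p = 0.027). Its window overlaps by 297 bp that of YMR175W-A on the same strand, which had -0.76 (standard error 0.22, adjusted p = 0.093). The call of SIP18 was lost without oxidized replicate 1, 2 or 3 or reduced replicate 2 or 3 at 48 hr, or oxidized replicate 1 or 2 or reduced replicate 1 or 2 at 72 hr (adjusted p 0.054 to 0.20).

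The list of hydrophilins and stationary phase proteins, to which SIP18 and SPI1 belong, had 15 of 21 values below 0. Its median was -0.49. It had 1 past the threshold in each direction, against 0.754% of the members as higher and 0.0209% as lower. At an unadjusted p below 0.05 it had 10, against 430 of 4776 members. These shares are not matched to the list for level. DDR2 had -0.67 (standard error 0.19, adjusted p = 0.11), SPG4 -0.52 (standard error 0.21, adjusted p = 0.38) and STF2 -0.49 (standard error 0.19, adjusted p = 0.33). RGI2 had -0.76 (standard error 0.32, adjusted p = 0.42), while its paralog RGI1 had 0.38. None of these 5 passed. Further values toward the reduced cells with the smallest p, not past the threshold, were those of SIT1, a transporter of iron-bound siderophores (-1.03 (standard error 0.28, adjusted p = 0.056)), HBT1 (-0.94 (standard error 0.28, adjusted p = 0.12)), RPL40B (-2.15 (standard error 0.64, adjusted p = 0.13)), HYM1 (-2.57 (standard error 0.75, adjusted p = 0.11)) and SHE2 (-2.76 (standard error 0.79, adjusted p = 0.099)), the mRNA-binding protein that carries messages to the bud. SIT1 had 332, 298 and 337 PPM in oxidized and 485, 613 and 466 PPM in reduced libraries at 48 hr, then 244, 281 and 289 PPM and 983, 1060.3 and 704 PPM. Its reduced libraries were above the oxidized ones at both ages. HYM1 and SHE2 were weak transcripts that a limit of 50 PPM on the mean left out. Over the alternative settings the value of HYM1 ran from -4.30 to -1.11 and that of SHE2 from -5.37 to -1.10.

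Among the other lists THI12 (thiamine) and SPI1 (cell wall) were the transcripts past the threshold, and the medians lay between -0.54 for meiosis and sporulation and 0.36 for a-cell genes, against -0.0041 for all members. In limma 0 of 36 transcripts of the proteasome list passed, with a median of -0.19 and 29 of 36 below 0. At an unadjusted p below 0.05 the list had 6, against 430 of 4776 members. Besides subunits it holds RPN4 (0.82), which is a regulator of proteasome genes and not a subunit. Of 41 transcripts of thiol redox and peroxide defence 0 passed in limma, 0 had an unadjusted p below 0.05, and the median was -0.12. TSA2, a peroxiredoxin, had -0.31, and GRX1, the yeast gene of a dithiol glutaredoxin, -0.27. The glyoxylate and gluconeogenesis list had a median of -0.29 with 17 of 22 below 0, and 2 had an unadjusted p below 0.05. Its redox difference was larger in size than this change, with a median of -1.25 at 48 hr and -1.58 at 72 hr. The lists of ammonium permeases and acetate or ammonia export (median -0.29, 6 genes), peroxisomal beta-oxidation (-0.12, 19 genes) and nitrogen catabolite repressed genes (-0.07, 25 genes) likewise had redox medians of -1.60, -1.36 and -0.88 at 72 hr.

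For growth and protein synthesis the median age difference was 0.04 for cytosolic ribosomal proteins (76 of 133 above 0), -0.06 for ribosome biogenesis factors (40 of 81 above 0), 0.16 for mitochondrial ribosomal proteins (37 of 69 above 0), 0.16 for histones (6 of 10 above 0) and -0.01 for cyclins and S phase genes (9 of 19 above 0). For carbon metabolism it was 0.16 for glycolysis and fermentation (18 of 28 above 0), -0.01 for the TCA cycle (8 of 16 above 0), 0.19 for trehalose and glycogen synthesis (15 of 18 above 0) and 0.09 for hexose transport (8 of 14 above 0). Among lipid and sulfur pathways it was -0.13 for ergosterol synthesis (8 of 27 above 0), 0.04 for fatty acid and phospholipid synthesis (13 of 25 above 0) and 0.07 for sulfur amino acid synthesis (14 of 26 above 0). Among nutrient and metal responses it was -0.23 for iron uptake (7 of 26 above 0), 0.24 for zinc (10 of 13 above 0), 0.19 for phosphate (14 of 19 above 0) and 0.19 for thiamine (16 of 20 above 0). For the remaining lists it was 0.08 for endoplasmic reticulum folding (10 of 15 above 0), -0.13 for autophagy and vacuolar proteases (9 of 26 above 0), 0.18 for cell wall mannoproteins (15 of 19 above 0), 0.04 for daughter cell and separation genes (8 of 14 above 0), 0.36 for a-cell genes (5 of 6 above 0), 0.16 for alpha-cell genes (1 of 2 above 0) and -0.54 for meiosis and sporulation (0 of 6 above 0). Each is a description beside the 49.6% of all members above 0, with no test of the list.

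Of 8 genes chosen because the study discusses them or their proteins, HSP30 and SSE2 passed, against 0.775% of the members. HSP78 did not, as given above, nor YRO2 (0.34 (standard error 0.26, adjusted p = 0.74)), PNC1 (0.29 (standard error 0.20, adjusted p = 0.73)), DHH1 (0.18 (standard error 0.34, adjusted p = 0.95)), HRP1 (0.14 (standard error 0.49, adjusted p = 0.97)) or TSA2 (-0.31 (standard error 0.40, adjusted p = 0.90)). TIF3, XRN1 and PRT1, which the study also discusses, had 0.61 (standard error 0.37, adjusted p = 0.68), -1.09 (standard error 0.37, adjusted p = 0.21) and 0.32 (standard error 0.59, adjusted p = 0.94).

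**Figure D5:**
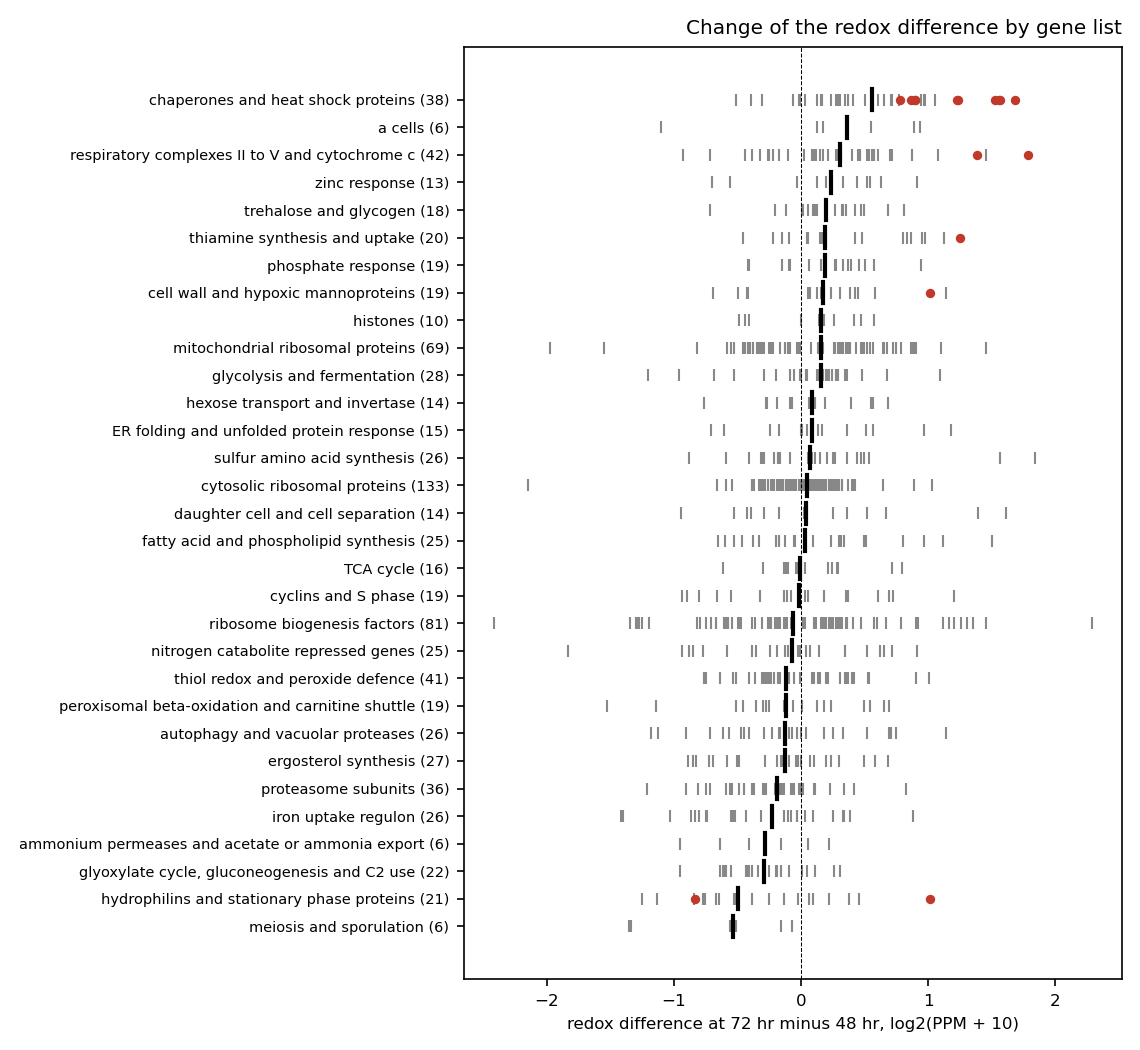
Age difference of the redox difference on the log2(PPM + 10) scale for each transcript (tick) of the lists with at least 6 genes tested (number in parentheses), with a black bar at the list's median and red points for transcripts past the threshold. The chaperone list has the highest median, 0.56, and 10 red points, and the lowest median, -0.54, is that of the 6 meiosis and sporulation transcripts. The list labeled as respiratory complexes and cytochrome c also holds NDI1, NDE1 and NDE2.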

How the data were processed

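RNA with a poly(A) tail was read from its 3′ end with a molecular identifier on each primer. The authors aligned reads to sacCer3 with Bowtie2 (bcl2fastq 2.17, and an aligner version not given in the sources used here), removed duplicates and counted reads from 350 bp before to 200 bp after each termination site. The deposited values are PPM, the reads of a gene in parts per 1e+06 of its library, and not counts, so no count model was the main test. The use of strand and the annotation are not given in the sources used here. The table mixes tab and comma separators. All 6645 genes were split, and 2 genes broken over lines were left out. The reference named 5911 genes and did not name 734.

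In R 4.3.3, log2(PPM + 10) was fitted with limma 3.58.1 (4 group means, eBayes with a trend, 45.1 prior degrees of freedom) and the contrast adjusted by Benjamini-Hochberg over 4776 genes, with a threshold of 0.05. This scale understates changes of weak transcripts. Whole reads were recovered from the PPM steps (100% of values whole) for depth and 1 alternative. P-values measure the spread between libraries, with that of each gene drawn strongly toward a trend over genes of like level. Window overlaps were computed with the coding end in place of the termination site. Tables and figures used Python 3.11.15, pandas 2.3.3, numpy 2.4.6 and matplotlib 3.10.9. Tested on simulated libraries (4774 genes, 200 changed, dispersion 0.0044), the fit found 35% of 2-fold and 85% of 4-fold changes, with 3 false among 123 calls. The simulation used a single dispersion, so its false calls do not test how far the calls in the real libraries depend on the trend. The shares found were not split by level and need not hold for weak transcripts. 

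Genes named are the leading transcripts past the threshold in each direction, filled with the smallest p where few passed, list members past the threshold or with the smallest p, 8 genes the study discusses, and strain checks. Those named outside this rule were chosen after their values were seen, and are YDR029W, SAY1, the remaining transcripts past the threshold, the chaperone, respiratory and hydrophilin transcripts, CYT1, YMR175W-A, TIF3, XRN1 and PRT1. The members and the gene lists were chosen with earlier results of these data known.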

Additional observations from a re-analysis of the deposited data

Results flagged for a closer look

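The redox difference between oxidized and reduced cells was not the same at 72 hr as at 48 hr for 37 transcripts, by limma's test of the difference itself (the interaction of redox state and age) with Benjamini-Hochberg adjustment. Each value below is the log2(PPM + 10) difference at 72 hr less that at 48 hr. It was higher at 72 hr by at least 1.5 for YIL100C-A 2.65, ZPR1 2.30, PRP46 2.25, GCG1 1.92, GID8 1.90, YHR054W-A 1.86, AIT1 1.84, YHR052W-A 1.80, CYC7 1.79, APJ1 1.68, SSE2 1.57, HSP42 1.56, VPS24 1.55, NCA2 1.54 and BTN2 1.53. It was between 1.2 and 1.5 for NDI1 1.38, LST8 1.37, PIN3 1.35, SPT15 1.29, BDH2 1.26, THI12 1.25, FES1 1.24, SSA4 1.23, SYG1 1.22 and YIL047C-A 1.20. Smaller values were those of ROQ1 1.15, HAP1 1.10, YJR096W 1.07, SPI1 1.01, HOR7 0.92, HSP82 0.90, HSP26 0.89, CPR6 0.86, CUP1-2 0.83, CUP1-1 0.83 and HSP30 0.78. SIP18 had -0.83. No group had enough libraries for a check of single libraries that stand apart.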

How the results depend on the processing

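With eBayes without a trend, limma called 0 transcripts (402 at an unadjusted p below 0.05), while voom on whole reads, an alternative chosen after seeing the data, called 45, 38 higher and 7 lower, of which 36 were among the 37. Without the trend every transcript is given the same prior spread, whatever its level. When single libraries were left out the count was 23 to 46, lowest without oxidized 72 hr replicate 1 or replicate 3 (both 23) and highest without reduced 72 hr replicate 3. Of the 37, 19 passed whichever library was left out, HSP42, BTN2, HSP26, FES1, SSE2, APJ1 and HSP82 among them. A pseudocount of 1 PPM gave 27 and of 50 PPM 42, no filter 30, a limit of 50 PPM on the mean 42, scaling by median of ratios 37, robust eBayes 36 and library weights 40. A requirement of at least 2-fold left 29. In all 22 alternatives the 37 kept their direction, and the chaperone list had 7 to 12 transcripts past the threshold as higher apart from the fit without a trend. HSP12 passed as lower with voom (-0.52, adjusted p = 0.040) and without reduced 72 hr replicate 3 (-0.69, adjusted p = 0.0024), with an adjusted p of up to 0.75 over the alternatives. The replicate numbers of the groups do not pair the libraries by any label. The correlation of deviations for same-numbered libraries was -0.06 to 0.04, 0 of 18 pairs exceeded 0.1, and 4 of 12 libraries correlated best with their own number. With the replicate number as a block the count was 36. Transcripts of 20 to 100 PPM had a median standard error of 0.66, so a 2-fold change was mostly not detectable at this depth.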
